A study of Homo sapiens with 6 samples.

Results

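Matrix metalloproteinases (MMPs) and tissue inhibitors of metalloproteinases (TIMPs) were followed in SiHa, an established cervical squamous carcinoma line that carries human papillomavirus, after knockdown of VPS13C. The 10 members are the collagenase MMP1, the gelatinase MMP2, the stromelysins MMP3 and MMP10, the matrilysin MMP7, the membrane-type enzymes MMP14 and MMP15, and the inhibitors TIMP1, TIMP2 and TIMP3. They were picked by gene symbol, and all 10 are among the 17156 genes of the table. The shVPS13C group (3 libraries) carried an shRNA against VPS13C, a gene for a protein that moves lipids between membranes at their contact sites, and the shcontrol group (3 libraries) a control shRNA. Both groups were kept for 48 h in cisplatin, a DNA-crosslinking platinum drug, at 20 µM, so no value here measures a response to the drug itself. How many shRNAs were used, and whether either line is a clone or a pool, is not given in the sources used here. Whether each library came from its own culture is not stated, and the p-values therefore reflect library-to-library spread, which may be technical.

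MMPs are zinc-dependent endopeptidases that cleave collagens, laminins and other matrix and cell-surface proteins, and nearly all are made as latent proenzymes. TIMPs bind the active site of the processed enzymes and block them, and TIMP2 also takes part in the activation of proMMP2 by MMP14 at the cell surface. In squamous carcinomas these enzymes are studied for their part in invasion through the basement membrane. Much of their control lies after transcription, in proenzyme cleavage and inhibition, which RNA levels do not record.

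Library totals ran from 15643965 to 16333424 estimated counts. VPS13C stood at 23.7, 25.1 and 27.5 CPM (counts scaled to a common library size) in shVPS13C libraries 1, 2 and 3, against 50.0, 54.9 and 49.6 CPM in shcontrol libraries 1, 2 and 3, a log2 fold change of -1.02 with a standard error of 0.065 (adjusted p = 4.77e-10, edgeR). The targeted transcript was therefore lower in every shVPS13C library but still present at 0.494 of the shcontrol level. The epithelial keratins KRT7, KRT8, KRT17 and KRT18 were abundant in both groups, at 1548, 2126, 1075 and 1225 CPM in shVPS13C and 1432, 2180, 1164 and 1261 CPM in shcontrol. The squamous basal keratins KRT5 and KRT14 were at or near 0, with 0 and 0.0416 CPM in shVPS13C and 0.0423 and 0.0209 CPM in shcontrol, and the basal-cell transcription factor TP63 was low, at 1.25 CPM in shVPS13C and 1.30 CPM in shcontrol. Of the 10 epithelial and squamous markers tested, 2 were called higher in shVPS13C and 0 lower, where 2.27% of all genes tested were higher and 2.23% lower. Their median log2 fold change was -0.04, with 6 of the 10 below 0. The 2 called were the adhesion protein CDH1 at 0.27 (46.8, 48.8 and 47.9 CPM in shVPS13C, against 39.5, 40.4 and 39.0 CPM in shcontrol; edgeR adjusted p = 0.00359) and the integrin ITGB4 at 0.29 (24.9 ± 1.05 CPM in shVPS13C and 20.3 ± 0.613 CPM in shcontrol, SD, n = 3 each; edgeR adjusted p = 0.0166). The keratin KRT19 averaged 28.1 CPM in shVPS13C and 32.5 CPM in shcontrol in groups that did not overlap, and did not pass (log2 -0.21, edgeR adjusted p = 0.0508). KRT17 was likewise lower in shVPS13C in groups that did not overlap, and did not pass (log2 -0.11, edgeR adjusted p = 0.114). The call of CDH1 was lost in the 2 limma fits and that of ITGB4 in 6 of the 14 alternatives. The leukocyte marker PTPRC was at 0 in all 6 libraries, while CD68, which is not limited to leukocytes, stood at 57.2 CPM in shVPS13C and 56.5 CPM in shcontrol. The endothelial marker TEK was at 0 in all 6 libraries, while PECAM1 stood at 3.13 CPM in shVPS13C and 2.95 CPM in shcontrol.

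Of the 10 members, 9 passed the filter on low counts and MMP7 did not. Among those 9, MMP1 and MMP3 fell and TIMP2 rose in shVPS13C at an edgeR adjusted p under 0.05, and the other 6 did not pass. Of all 12671 genes tested, 2.27% were called higher and 2.23% lower, so the 1 member higher and 2 members lower stand against those shares. The CPM values of the groups did not overlap for 6 members (MMP1, MMP3 and MMP10 lower in shVPS13C; MMP15, TIMP2 and TIMP3 higher), where 23.1% of all genes tested did not overlap. The median log2 fold change of the 9 members was -0.04, beside -0.001 over all genes tested.

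**Figure D1:**
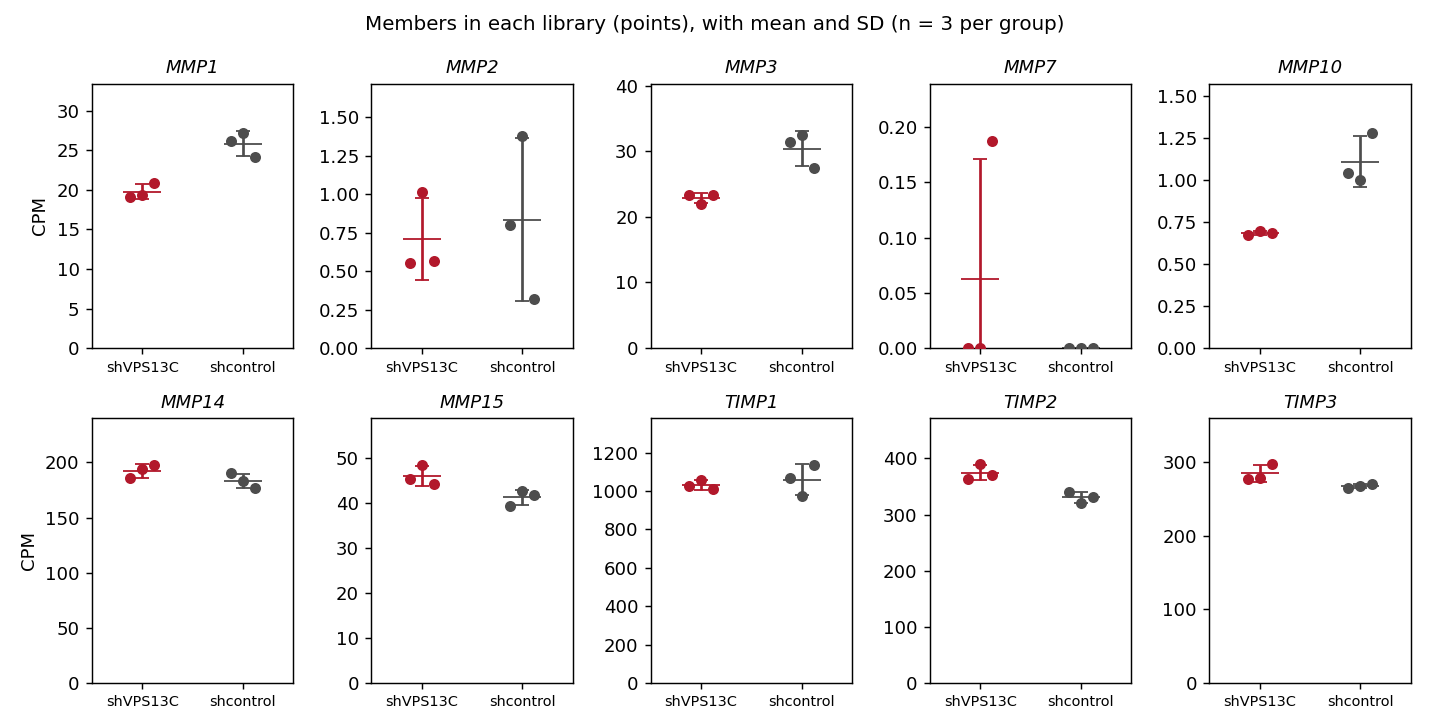
CPM of each member in each library, shVPS13C left and shcontrol right in each panel; points are libraries and bars are the mean with SD (n = 3 each). MMP1 and MMP3 sit lower in all 3 shVPS13C libraries and TIMP2 higher in all 3, while MMP2, MMP14 and TIMP1 overlap.

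Promoter sequence from the RefSeq table (build GRCh38.p14) was at hand for 6 of the 10 members: MMP7, MMP10, MMP14, MMP15, TIMP1 and TIMP3. A window of 250 bases before to 50 after the gene's start was searched on both strands for TGANTCA, the letters bound by AP-1 (Fos and Jun family) factors and its own reverse complement, TATAAA, the TATA box, and GGGCGG, the GC box bound by Sp factors. Of 35116 promoter windows in that table, 7.71% held TGANTCA, 11.5% held TATAAA and 45% held GGGCGG. The 150 bases before the start are shown for 4 members that contrast, with the matched letters in capitals. They are MMP10 (chr11:102780629-102780778, minus strand), MMP7 (chr11:102530748-102530897, minus), MMP14 (chr14:22836435-22836584, plus) and TIMP1 (chrX:47582286-47582435, plus).
MMP10: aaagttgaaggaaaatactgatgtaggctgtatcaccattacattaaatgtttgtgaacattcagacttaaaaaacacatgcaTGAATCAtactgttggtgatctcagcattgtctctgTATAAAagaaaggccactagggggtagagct
MMP7: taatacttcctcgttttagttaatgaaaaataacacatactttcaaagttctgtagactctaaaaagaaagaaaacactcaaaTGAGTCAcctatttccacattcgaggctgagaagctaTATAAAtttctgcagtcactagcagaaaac
MMP14: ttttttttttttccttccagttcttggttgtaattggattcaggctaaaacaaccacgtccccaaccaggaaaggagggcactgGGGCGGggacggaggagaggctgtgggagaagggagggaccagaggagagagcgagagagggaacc
TIMP1: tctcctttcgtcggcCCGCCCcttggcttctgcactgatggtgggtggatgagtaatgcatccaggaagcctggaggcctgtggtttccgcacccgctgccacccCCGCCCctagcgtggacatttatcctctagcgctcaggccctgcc
MMP10 and MMP7, both in the chromosome 11 cluster, each carry 1 TGANTCA match that begins 67 bases before the start. It reads TGAATCA in MMP10, which is not the usual AP-1 site, and TGAGTCA in MMP7, which is. Each also carries 1 TATAAA match, which begins 31 bases before the start in MMP10 and 30 in MMP7. Neither window holds a GC box, and their GC contents are 36.3% and 35.7%. MMP14 and TIMP1 hold no TGANTCA and no TATAAA, but 1 and 2 GC boxes, with GC contents of 55.0% and 65.0%. MMP15 and TIMP3 are of the same kind, each with 5 GC boxes, at 75.3% and 72.7% GC. These matches describe the letters in the windows and say nothing of which factor was bound in these cells.

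The interstitial collagenase MMP1, which cleaves fibrillar collagens, lies on chromosome 11 at 102789919 to 102798160 on the minus strand (RefSeq, GRCh38.p14). It held 311, 305 and 334 counts in shVPS13C libraries 1, 2 and 3, against 426, 434 and 376 counts in shcontrol libraries 1, 2 and 3. On the CPM scale this was 19.1, 19.4 and 20.9 in shVPS13C, against 26.2, 27.2 and 24.1 in shcontrol. All 3 shVPS13C libraries lay below all 3 shcontrol libraries, and shcontrol 3 was the lowest of its group. The means were 19.8 ± 0.991 CPM in shVPS13C and 25.8 ± 1.58 CPM in shcontrol (SD, n = 3 each). The log2 fold change was -0.39 with a standard error of 0.073 and a 95% interval from -0.54 to -0.24 (edgeR adjusted p = 0.00267), a fold of 0.765. Permuting the library labels exactly, two-sided, gave p = 0.1 for log2 CPM, the smallest that 3 against 3 allows. In bulk RNA, fewer cells that express a gene and less RNA per cell cannot be told apart. In the GENCODE annotation 7.61% of MMP1 exon bases lie opposite exons of the pseudogene WTAPP1. Of the MMP1 stretches of 50 bases, the read length, 2.92% also occur there. Any use of strand in counting is not given in the sources used here.

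MMP3 (stromelysin, chromosome 11, 102835801 to 102843609, minus strand), which cleaves proteoglycans, laminin and fibronectin and can process other proMMPs, also fell. It held 380, 347 and 373 counts in shVPS13C libraries 1, 2 and 3, against 510, 517 and 428 in shcontrol libraries 1, 2 and 3. In CPM these were 23.3, 22.0 and 23.3 in shVPS13C, against 31.4, 32.4 and 27.4 in shcontrol. The groups did not overlap, and shcontrol 3 was again the lowest of the controls. The means were 22.9 ± 0.745 CPM in shVPS13C and 30.4 ± 2.62 CPM in shcontrol (SD, n = 3 each), a log2 fold change of -0.41 with a standard error of 0.072 and a 95% interval from -0.56 to -0.26 (edgeR adjusted p = 0.00131, exact permutation p = 0.1) and a fold of 0.752. The ratio of MMP1 to MMP3 in FPKM, which corrects for length, was 0.788 ± 0.0373 in shVPS13C and 0.776 ± 0.0218 in shcontrol (SD, n = 3 each), with overlapping values. Of the MMP3 stretches of 50 bases, 2.88% also occur in MMP10, and 1.56% of MMP3 exon bases lie opposite exons of WTAPP1.

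MMP10, a stromelysin close to MMP3 in sequence that lies beside MMP1 (chromosome 11, 102770502 to 102780628, minus strand), was measured at few counts. It had 11 counts in each shVPS13C library, against 17, 16 and 20 in shcontrol libraries 1, 2 and 3. In CPM it averaged 0.687 ± 0.0122 in shVPS13C and 1.11 ± 0.150 in shcontrol (SD, n = 3 each). The groups did not overlap, yet the call was not made: the log2 fold change was -0.68 with a standard error of 0.314 and a 95% interval from -1.33 to -0.04 (edgeR adjusted p = 0.234). Of its stretches of 50 bases, 3.36% also occur in MMP3, whose counts are far higher in every library.

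MMP7, the matrilysin of glandular epithelia (chromosome 11, 102520508 to 102530747, minus strand), had 3 counts in shVPS13C library 3 and 0 in the other 5 libraries. It did not pass the filter and no fold is given. A count of 0 allows up to 3 counts, which is 0.184 to 0.192 CPM in these libraries.

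MMP2, the gelatinase that degrades basement membrane collagen (chromosome 16, 55478830 to 55506691, plus strand), was also near the limit of detection. It held 9, 16 and 9 counts in shVPS13C libraries 1, 2 and 3, against 13, 22 and 5 in shcontrol libraries 1, 2 and 3, and the groups overlapped. The log2 fold change was -0.24 with a wide interval with a standard error of 0.417 and a 95% interval from -1.10 to 0.62 (edgeR adjusted p = 0.811). Its counts were split differently between transcripts from library to library: NM_001302510.1 took 0, 100 and 100% in shVPS13C and 0, 22.1 and 100% in shcontrol, with the rest on NM_004530.6. At these counts the split has no replicate support in either group.

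MMP14, the membrane-bound collagenase that activates proMMP2 (chromosome 14, 22836585 to 22847758, plus strand), was the most abundant MMP member. It stood at 185, 194 and 198 CPM in shVPS13C libraries 1, 2 and 3, against 190, 183 and 177 CPM in shcontrol libraries 1, 2 and 3. The groups overlapped through shVPS13C 1 and shcontrol 1. The log2 fold change was 0.07 with a standard error of 0.041 and a 95% interval from -0.01 to 0.15 (edgeR adjusted p = 0.376), so a rise beyond 0.15 on the log2 scale lay outside the interval. MMP15, a membrane-type relative (chromosome 16, 58025754 to 58046901, plus strand), stood at 45.2, 48.5 and 44.3 CPM in shVPS13C, against 39.3, 42.6 and 41.7 CPM in shcontrol. Its groups did not overlap, and the log2 fold change was 0.16 (standard error 0.057, 95% interval 0.04 to 0.28) without passing the test (edgeR adjusted p = 0.121).

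**Figure D2:**
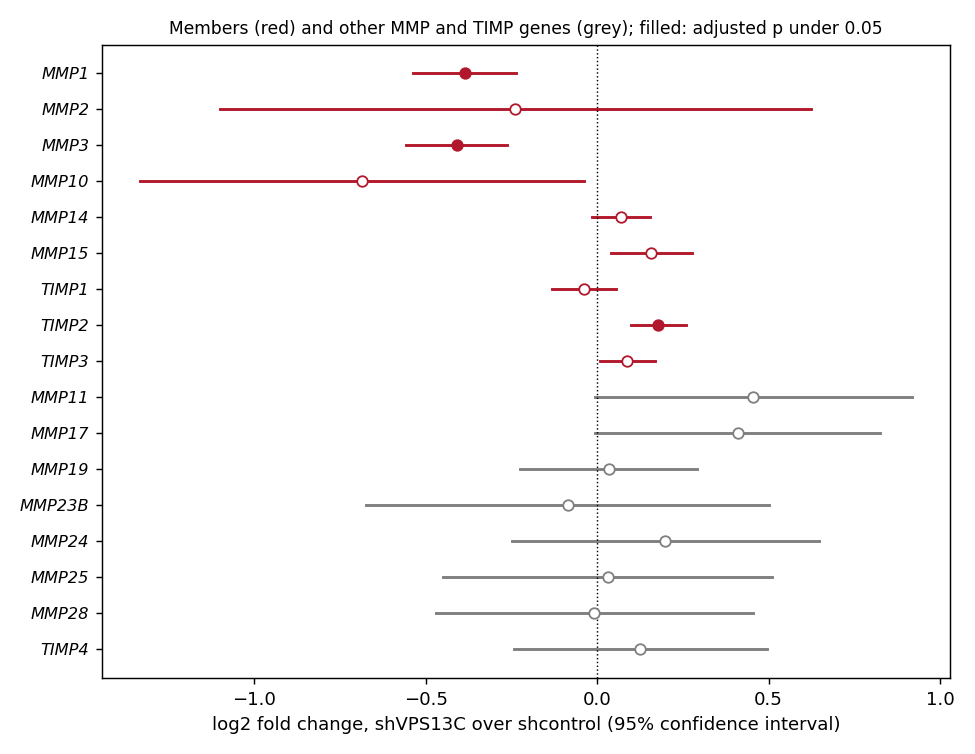
Log2 fold change, shVPS13C over shcontrol, of the 9 members tested (red) and of 8 further family genes (grey), with 95% confidence intervals from the edgeR fit; filled points passed an adjusted p of 0.05. MMP1 lies at -0.39, MMP3 at -0.41 and TIMP2 at 0.18, and among the members the intervals of MMP2 and MMP10 are the widest.

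Of the inhibitors, TIMP2 was called. TIMP2 (chromosome 17, 78852977 to 78925387, minus strand) stood at 363, 389 and 371 CPM in shVPS13C libraries 1, 2 and 3, against 340, 321 and 332 CPM in shcontrol libraries 1, 2 and 3. Every shVPS13C library lay above every shcontrol library, with shVPS13C 2 the highest. The means were 375 ± 13.4 CPM in shVPS13C and 331 ± 9.86 CPM in shcontrol (SD, n = 3 each), a log2 fold change of 0.18 with a standard error of 0.039 and a 95% interval from 0.10 to 0.26 (edgeR adjusted p = 0.00941, exact permutation p = 0.1) and a fold of 1.13. Without shVPS13C 2 the log2 fold change was 0.15 and the call was lost (edgeR adjusted p = 0.0738), and limma-trend on log2(FPKM + 1) gave 0.18 with an adjusted p of 0.0634. Over the 14 alternatives its adjusted p ran from 0.00131 to 0.0738. In the GENCODE annotation 6.52% of TIMP2 exon bases lie opposite exons of AC022966.1, and 3.52% overlap exons of CEP295NL on the same strand. Of the TIMP2 stretches of 50 bases, 8.28% also occur in AC022966.1 or CEP295NL. CEP295NL itself averaged 0.749 CPM in shVPS13C and 0.960 CPM in shcontrol, and the level of AC022966.1 was not looked at.

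TIMP1, a secreted inhibitor of most MMPs (chromosome X, 47582436 to 47586789, plus strand, within SYN1), was the most abundant member. It stood at 1029, 1059 and 1009 CPM in shVPS13C libraries 1, 2 and 3, against 1069, 975 and 1136 CPM in shcontrol libraries 1, 2 and 3. Both the lowest and the highest value belonged to shcontrol, so the groups overlapped (log2 fold change -0.04, standard error 0.046, 95% interval -0.13 to 0.06, edgeR adjusted p = 0.704). The transcript NM_003254.3 took 96.4 ± 0.360% of its counts in shVPS13C and 96.6 ± 0.286% in shcontrol (SD, n = 3 each).

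TIMP3, the inhibitor that binds to the matrix (chromosome 22, 32801705 to 32863041, plus strand, within SYN3), stood at 277, 279 and 298 CPM in shVPS13C libraries 1, 2 and 3, against 266, 268 and 270 CPM in shcontrol libraries 1, 2 and 3. The groups did not overlap, and shVPS13C 3 was the highest. The log2 fold change was 0.09 (standard error 0.039, 95% interval 0.01 to 0.17), which did not pass the test (edgeR adjusted p = 0.216). SYN3, the synapsin gene that holds it, averaged 127 CPM in shVPS13C and 145 CPM in shcontrol, a log2 difference of -0.19 (edgeR adjusted p = 0.175) in overlapping groups. No exon bases of TIMP3 overlap exons of another gene in the GENCODE annotation.

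Per length, in FPKM, the order of mean levels in shVPS13C was TIMP1, TIMP2, TIMP3, MMP14, MMP3, MMP15, MMP1, MMP10, MMP2 and MMP7. In shcontrol the order was the same except that MMP1 stood above MMP15. The FPKM ranges of MMP15 and MMP1 overlapped in shVPS13C (11.68 to 12.79 and 11.30 to 12.35) and did not in shcontrol (10.35 to 11.34 and 14.20 to 16.17). The exchange of places was not tested. The other neighbours above MMP7 did not overlap in either group. Mean FPKM was 2061 ± 41.4 in shVPS13C and 2112 ± 157 in shcontrol for TIMP1 (SD, n = 3 each). For MMP14 it was 56.2 ± 1.78 in shVPS13C and 53.6 ± 1.89 in shcontrol, and for MMP3 14.8 ± 0.534 in shVPS13C and 19.7 ± 1.77 in shcontrol.

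**Figure D3:**
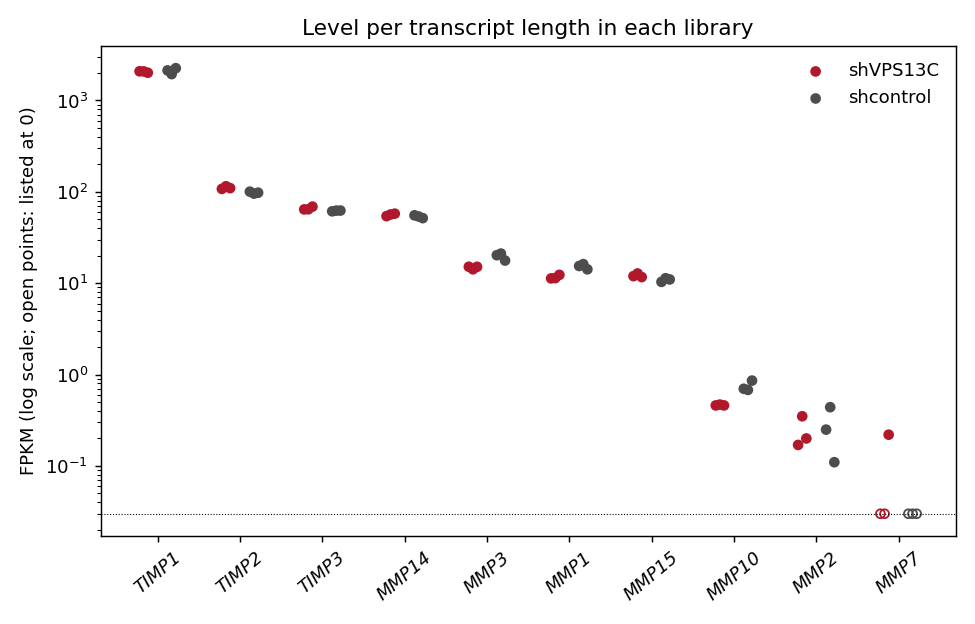
FPKM of each member on a log axis, shVPS13C left of shcontrol, with each library as a point; open points on the dotted line are libraries listed at 0. TIMP1 is the highest at 2061 FPKM in shVPS13C and 2112 FPKM in shcontrol, and MMP2 and MMP10 lie below 1 FPKM.

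Summed over members as FPKM, the 7 MMPs gave 95.6 ± 2.24 in shVPS13C and 100.5 ± 4.34 in shcontrol, and the 3 TIMPs gave 2238 ± 39.7 in shVPS13C and 2272 ± 158 in shcontrol (SD, n = 3 each). The MMP sum was 4.13, 4.23 and 4.46% of the TIMP sum in shVPS13C libraries 1, 2 and 3, and 4.46, 4.92 and 3.95% in shcontrol libraries 1, 2 and 3, with overlapping groups. With CPM in place of FPKM, so not per length, these shares averaged 16.7% in shVPS13C and 17.1% in shcontrol. TIMP1 alone made up 92.1 ± 0.273% of the TIMP sum in FPKM in shVPS13C and 92.9 ± 0.441% in shcontrol (SD, n = 3 each). The TIMP sum therefore follows TIMP1 and shows little of TIMP2 or TIMP3. MMP14 made up 58.8 ± 0.527% of the MMP sum in shVPS13C and 53.4 ± 1.22% in shcontrol. MMP1 and MMP3 together made up 28.3, 26.7 and 28.1% in shVPS13C, against 34.9, 36.0 and 33.4% in shcontrol, and these groups did not overlap. Both genes were already called lower, so this share restates those calls and is no separate support. MMP14, whose share was larger in shVPS13C, was not itself called. FPKM compares transcripts per length and is not a measure of protein, and no test was run on these sums.

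MMP1, MMP3, MMP10 and MMP7 belong to a cluster of MMP genes on the long arm of chromosome 11. MMP10 ends 9.29 kb from MMP1, and MMP1 lies 37.6 kb from MMP3. From YAP1 to DYNC2H1, 1369 kb in all, 9 genes were tested, of which 8 had a log2 fold change below 0. Those 8 include the members MMP1, MMP3 and MMP10, and the median over all genes tested was -0.001. Of the 9 genes, 4 were called lower in shVPS13C and 0 higher, where 2.27% of all genes tested were higher and 2.23% lower. The 4 are the members MMP1 and MMP3 and the neighbours BIRC3 and DCUN1D5. BIRC3, an inhibitor of apoptosis, had a log2 fold change of -0.31 (edgeR adjusted p = 0.00523), and DCUN1D5, a neddylation factor, of -0.17 (edgeR adjusted p = 0.0261). BIRC2 stood at -0.12, TMEM123 at -0.13, DYNC2H1 at -0.06 and YAP1 at 0.02, and none of these passed. The call of DCUN1D5 was lost in 7 of the 14 alternatives (highest adjusted p = 0.131), and that of BIRC3 in the 2 limma fits (highest adjusted p = 0.0933). The cluster members MMP12 (3, 2 and 5 counts in shVPS13C, 6, 4 and 4 in shcontrol) and MMP13 (1, 0 and 1 counts in shVPS13C, 1, 1 and 0 in shcontrol) were too low to test. MMP8, MMP20 and MMP27 were not among the 17156 genes listed. These genes share a stretch of chromosome, and no test of the stretch as such was run.

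**Figure D4:**
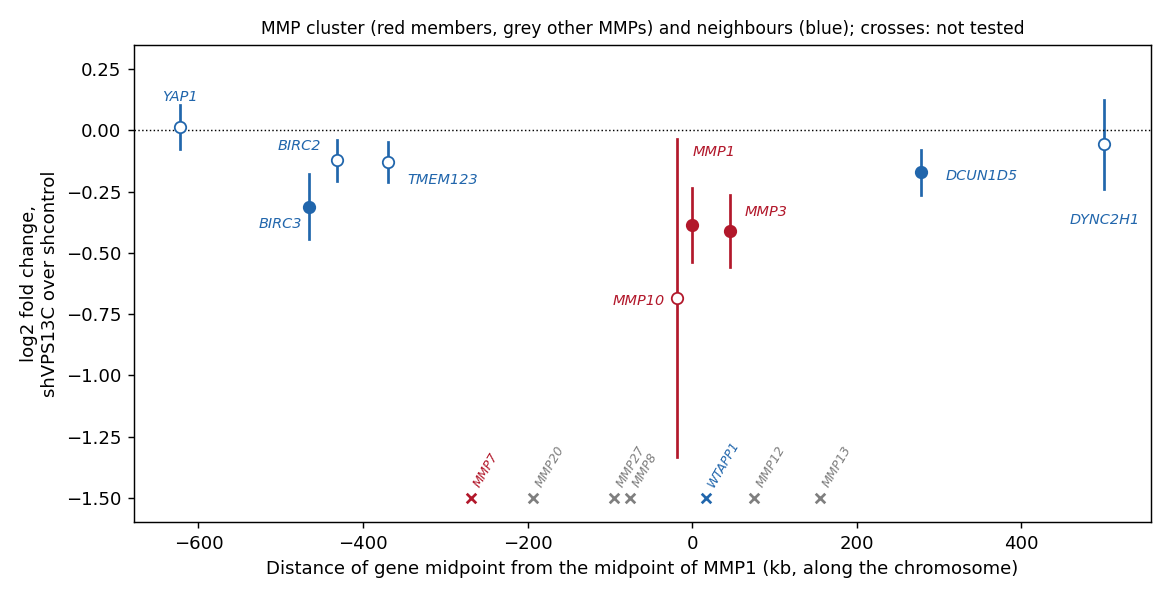
Log2 fold change, shVPS13C over shcontrol, with 95% confidence intervals, against distance from the midpoint of MMP1 in kb, for the genes tested from YAP1 to DYNC2H1; red points are members, blue points neighbours, filled points passed, and crosses mark genes not tested. Crosses stand at a fixed height that is not a value. Among the tested genes, all points but that of YAP1 lie below 0.

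Of 17 further family genes listed, TIMP4 among them, 12 are in the table and 8 passed the filter. None was called by edgeR or limma, and none had an unadjusted p under 0.05 in edgeR; at the 4.50% of all genes tested that edgeR called, 0 of 8 is near the background. DESeq2 gave an adjusted p for only 1 of the 8, MMP19, which it did not call. The largest differences were in MMP11, a stromelysin, at 0.46 (edgeR adjusted p = 0.274) and MMP17, a membrane-anchored MMP, at 0.41 (edgeR adjusted p = 0.273), with overlapping groups. The other log2 fold changes were 0.20 in MMP24, 0.13 in TIMP4, -0.09 in MMP23B, 0.03 in MMP19, 0.03 in MMP25 and -0.01 in MMP28. MMP9, the other gelatinase, had 0, 0 and 3 counts in shVPS13C, against 1, 1 and 0 in shcontrol, and was not tested.

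Among genes that activate MMPs or act on them at the cell surface, 34 were listed, 24 were tested, 2 were higher and 1 lower, beside 2.27% and 2.23% of all genes tested, and the median log2 fold change was 0.01. SPOCK1, a proteoglycan, was higher at 0.70 (edgeR adjusted p = 0.00167), and PLAUR, the receptor for urokinase, at 0.21 (127 ± 4.63 CPM in shVPS13C and 110 ± 2.57 CPM in shcontrol, SD, n = 3 each; edgeR adjusted p = 0.00512). PLAUR belongs to the plasminogen system, whose enzyme plasmin can cleave proMMPs. The call of PLAUR was lost without shVPS13C 1 (edgeR adjusted p = 0.0634). Of 38 listed ADAM, ADAMTS and related proteases 12 were tested and 0 called by edgeR or limma, 3 having an unadjusted p under 0.05 in edgeR, and DESeq2 called 0 of the 9 for which it gave an adjusted p; with no filter on low counts edgeR called 1 lower.

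Of 33 listed matrix substrates, 21 were tested, 5 were called higher and 2 lower, where 2.27% of all genes tested were higher and 2.23% lower. Their median was 0.05. The laminin chain LAMA4 was higher at 0.43 (edgeR adjusted p = 1.83e-04), the collagen chain COL1A1 at 0.43 (edgeR adjusted p = 0.00171) and LAMB3, a chain of the epithelial laminin, was lower at -0.29 (edgeR adjusted p = 1.83e-04). COL5A1 (0.42), TNC (0.25) and VTN (0.23) were the others higher and COL7A1 (-0.20) the other lower; these 4 were named after their values were seen. The calls of LAMA4 and COL1A1 were lost in the 2 limma fits (highest adjusted p = 0.0551 and 0.0616). Those of COL5A1 and TNC were lost in 3 of the 14 alternatives, among them the fits without shVPS13C 2 for COL5A1 and without shVPS13C 3 for TNC, that of VTN in 5 and that of COL7A1 in 8. Of 10 fibroblast markers 3 were tested and COL1A1 alone was called, and their summed level was 48.8 to 53.0 CPM in shVPS13C and 45.7 to 47.1 CPM in shcontrol. Most of that sum was COL1A1 and ACTA2, and ACTA2 stood at 27.8 CPM in shVPS13C and 30.1 CPM in shcontrol (log2 -0.11, edgeR adjusted p = 0.376). COL3A1, the third marker tested, stood at 1.06 ± 0.114 CPM in shVPS13C and 0.671 ± 0.155 CPM in shcontrol (SD, n = 3 each) in groups that did not overlap, and did not pass (log2 0.66, edgeR adjusted p = 0.277). DCN, PDGFRA, PDGFRB and THY1 had at most 2 counts in any library. Whether another cell type had a part in these values was not tested.

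Of 28 AP-1 and ETS transcription factors, families known to act on MMP promoters, 22 were tested, 2 were higher and 1 lower, beside 2.27% and 2.23% of all genes tested, and the median was -0.08. FOSL1 was lower at -0.23, with 134, 134 and 131 CPM in shVPS13C libraries 1, 2 and 3, against 154, 149 and 164 CPM in shcontrol libraries 1, 2 and 3 (edgeR adjusted p = 0.00267). FOSB at 0.30 (edgeR adjusted p = 0.0146) and FOS at 0.26 (edgeR adjusted p = 0.0265) passed with overlapping groups, and each call was lost in 8 of the 14 alternatives, DESeq2 among them. Of 31 ligands and receptors known to induce MMPs, 25 were tested, 0 were higher and 2 lower, beside 2.27% and 2.23% of all genes tested, and the median was -0.04. These were MET, the receptor for hepatocyte growth factor, at -0.21 (edgeR adjusted p = 0.00624) and the cytokine LIF at -0.21 (edgeR adjusted p = 0.0151). The call of MET was lost without shVPS13C 1 and without shVPS13C 2 (highest adjusted p = 0.0582), and that of LIF in 5 of the 14 alternatives (highest adjusted p = 0.111).

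For each called member, the 3 genes of mean at least 5 CPM with the smallest root mean square difference in centred log2 CPM over the 6 libraries were found among 10660 candidates. For MMP1 these were MBNL1, a splicing regulator (difference 0.0493), RNF138, a ubiquitin ligase (0.0497), and RBM38, an RNA-binding protein (0.0594). For MMP3 they were RNF138 (0.0387), RBM38 (0.0502) and MBNL1 (0.0589). For TIMP2 they were LRRC8A, a volume-regulated anion channel subunit (0.0151), the kinase MAP2K1 (0.0160) and the G protein subunit GNA11 (0.0188). Their log2 fold changes were -0.37, -0.38 and -0.42 for MBNL1, RNF138 and RBM38, and 0.17, 0.17 and 0.20 for LRRC8A, MAP2K1 and GNA11. Likeness over 6 libraries in 2 groups rests mainly on the difference between the groups.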

How the data were processed

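Total RNA of SiHa cells was sequenced as single-end reads of 50 bases, per the labels' protocols, in 6 libraries. In the deposited gene table each gene has an estimated count, unscaled, beside the authors' FPKM (scaled to transcript length and library reads), per the file headers. The submitters' processing notes name hg38 as build. Aligner, counter, annotation and strand setting are not stated in the labels. Exon overlaps and shared stretches of 50 bases came from GENCODE, and gene positions and promoters from RefSeq. The deposited transcript table holds estimated counts per RefSeq transcript, per the file headers. A further 30 per-sample columns were not used. Estimated counts were rounded, passed through filterByExpr (minimum count 10), scaled by TMM and compared with the edgeR 4.0.16 quasi-likelihood test in R 4.3.3, two-sided, with Benjamini-Hochberg adjustment over all 12671 genes and a threshold of 0.05. CPM used TMM-scaled library sizes. Each SE is the log2 fold change over the square root of F, and 95% intervals use the fit's degrees of freedom. DESeq2 1.42.0 and limma 3.58.1 served as alternatives, beside other scalings, no filter, a replicate block and leaving out each library. The floors given for counts of 0 cover counting error only, while the edgeR intervals take in library-to-library spread. Of the steps, only the edgeR fit was tested on simulated counts, drawn with the same dispersion for all genes. Genes named were all members, up to 3 called members of each list with the smallest p, all other MMP and TIMP genes tested, and the 3 genes most like each called member. Cell type markers, neighbours on chromosome 11, host genes and family genes too low to test were named beside these after their values were seen. Members and lists were chosen with earlier results of these data known. A gene that this rule would name is not reported here.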

Additional observations from a re-analysis of the deposited data

How the results depend on the processing

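MMP1 and MMP3 kept direction and call in all 14 alternatives, with adjusted p from 1.12e-04 to 0.0305 and from 1.04e-05 to 0.0262. TIMP2 kept its direction and lost its call in 3, so that 0 members were higher without shVPS13C 2 and with both limma fits (0.18, adjusted p 0.0634 and 0.0616), and the lowest leave-one-out count of members changed was 2 and the highest 3. The genes changed numbered 570 by edgeR, 342 by DESeq2 (178 higher, 164 lower), 147 by limma on log2(FPKM + 1) (63 higher, 84 lower) and 151 on log2(FPKM + 0.1) (64 higher, 87 lower). Leaving out single libraries gave 204 to 463 changed, 101 to 238 higher and 103 to 225 lower, with the fewest without shVPS13C 1. The same-numbered libraries did not pair (correlations of 0.0879, -0.0848 and -0.220 over 10699 genes). Across numbers, shVPS13C 3 with shcontrol 2 gave 0.215 and shVPS13C 2 with shcontrol 3 gave 0.185. The remaining cross-numbered pairs ran from -0.117 to 0.0366, and a pairing under other numbers was not tested. With the replicate block, which used the same numbers, 483 genes and 3 members changed. The MMP sum was 16.7% of the TIMP sum in shVPS13C and 17.1% in shcontrol with CPM in place of FPKM. With all family genes, in FPKM, it was 4.72% in shVPS13C and 4.83% in shcontrol. Over left-out libraries it was 4.18 to 4.35% in shVPS13C and 4.20 to 4.69% in shcontrol. Uncalled values changed sign with a single library left out in MMP2 (log2 -0.61 to 0.32), TIMP1 (-0.094 to 0.014), MMP19 (-0.084 to 0.12), MMP23B (-0.24 to 0.048), MMP25 (-0.023 to 0.074) and MMP28 (-0.20 to 0.25), and with limma (first and second pseudocount) in MMP23B (0.023 and 0.058) and MMP28 (0.055 and 0.054); the cause was not tested. DESeq2 gave no adjusted p for MMP2, MMP10 and 7 of the 8 further family genes tested; MMP2 had 5 to 22 counts a library and MMP10 11 to 20, and at this depth 0 counts of MMP7 cannot be told from a level below the floor.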
